A study of Homo sapiens with 8 samples.

Results

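The genes described here are 10 genes that have been reported as targets of the microRNA miR-204-5p: RAB22A, M6PR, SOX4, EZR, FOXC1, AP1S1, AP1S2, CDC42, BCL2 and SIRT1. They were chosen by name, as every non-control probe of a 2-colour Agilent expression array whose gene name was one of these 10 symbols, and the rule used no measured value, although earlier results of these data were known when the genes were picked. All 10 genes were on the array, with 16 probes out of 58201 probes for 43317 gene names. The series held 8 arrays of human cancer cell lines. On each array, RNA of mock cells without transfection carried the dye Cy3 and RNA of transfected cells of the same line carried Cy5. The 2 arrays of interest were SW1990 pancreatic cancer cells and MDA-MB-231 breast cancer cells, each transfected with miR-204-5p. The other 6 arrays were PC3 prostate cancer cells with 1 of 2 siRNAs against the gene PIR (si-PIR-2 or si-PIR-3), SK-MES-1 lung squamous cell carcinoma cells with miR-144-5p and miR-144-3p, and PANC1 pancreatic cancer cells with miR-130-5p and miR-130-3p. RNA was delivered with the lipid reagent Lipofectamine RNAiMAX, and there was 1 array for each line and RNA.

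A microRNA guides an Argonaute protein to messenger RNAs, mostly through pairing of its seed, bases 2 to 8 from the 5' end, with complementary sites in the 3' untranslated region. Paired messages are translated less and degraded faster, so that a microarray can record a direct target as a lower level, although a target held back only in translation leaves no trace on an array. miR-204-5p is encoded within the gene TRPM3, shares its seed with miR-211-5p, and is known from retinal and other epithelia. The mature sequences below are those of RefSeq on GRCh38.p14, with the seed in capitals. They are shown because the seed sets which messages each RNA can pair with, and because both arms of miR-144 were among the comparison arrays. The labels do not give the letter of miR-130, so its sequence is not shown.
hsa-miR-204-5p: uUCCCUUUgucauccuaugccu
hsa-miR-211-5p: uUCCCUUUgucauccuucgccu
hsa-miR-144-5p: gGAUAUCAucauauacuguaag
hsa-miR-144-3p: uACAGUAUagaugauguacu
miR-204-5p lies at chr9:70810031-70810052 on the minus strand and miR-211-5p at chr15:31065095-31065116 on the minus strand. The seed of miR-204-5p and miR-211-5p differed from those of both miR-144 arms.

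All values below are log2 ratios of transfected over mock cells, taken from the ratio that the scanner software gave for each spot, so that -1 is a level 2-fold lower than in mock cells. Of the 16 probes, 12 probes of 9 genes had a signal well above background in the mock or the transfected channel of every array and were tested. The 4 probes not tested were both probes of BCL2 and 2 of the 4 probes of AP1S2. Each tested probe had 2 comparisons in limma, adjusted by Benjamini-Hochberg over all 24111 probes tested: the 2 miR-204-5p arrays against mock, and the 2 miR-204-5p arrays against the other 6. Dyes were not swapped and mock cells were not transfected, so that in the first comparison dye, transfection itself and miR-204-5p cannot be told apart. In the second, dye and transfection were shared, but neither SW1990 nor MDA-MB-231 had another RNA on an array, so that cell line and miR-204-5p cannot be told apart. In both comparisons the p-values measure the spread over all 8 of these single arrays of different lines and RNAs. They do not measure the spread of the 2 miR-204-5p arrays alone.

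The array medians of tested probes were 0.03 on both miR-204-5p arrays and lay between 0.00 and 0.07 on the other 6. All 8 arrays came from 1 slide and 1 scan. The mock channel was well above background for 43.7% to 48.6% of spots and the transfected channel for 51.8% to 56.5%. Of 6 markers looked for in carcinoma cells (KRT8, KRT18, KRT19, EPCAM, CDH1 and VIM), 5 or 6 were well above background in mock cells of every array. CDH1 was missing in PANC1 and on 1 SK-MES-1 array. A probe counted if any of its spots was well above background, and the CDH1 probe had 10 spots. Its mean mock intensity was 1016 in SW1990 but only 30.9 in MDA-MB-231, beside median backgrounds of 19 and 20. Of the markers of other cell types, the endothelial CDH5 was above background in mock cells of every array and the liver marker ALB on none. The leukocyte marker PTPRC had 2 of 5 probes above background on all 8 arrays, the T cell marker CD3E was above it on 4 arrays, and the endothelial PECAM1 had a probe above it in PC3, SW1990 and MDA-MB-231 and none in SK-MES-1 and PANC1. Their part in the results was not tested.

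M6PR, both tested AP1S2 probes and RAB22A had the 4 lowest ratios among the members, each below -1 on both miR-204-5p arrays. All tested probes with such a fall came to 135 of 24111, or 0.56%. Against mock, 3 of the 12 tested member probes fell at an adjusted p under 0.05, 1 of M6PR and 2 of AP1S2, where 0.369% of all probes tested were called lower. None of the 12 rose in limma at an adjusted p under 0.05, where 0.0705% of all probes were called higher. At an unadjusted p under 0.05, 0 of the 12 were higher against mock, beside 1399 of all 24111 probes. Against the other 6 arrays, the same 3 probes were lower and none was higher, again with 0 higher at an unadjusted p under 0.05, beside 910 of all probes. Of all probes, 0.12% were called lower in that comparison and 0.00415% higher. At an unadjusted p under 0.05, 9 member probes were lower against mock, beside 1180 of all 24111 probes, and 8 were lower against the other arrays, beside 964. On 8 of the 12 member probes both miR-204-5p values lay below all 6 others, as did 6.04% of all probes tested. The median of the 12 probes was -0.79 against mock and -0.66 against the other arrays, beside 0.04 and 0.02 over all probes. Without either one of the 2 miR-204-5p arrays, limma called no member probe in either comparison.

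**Figure D1:**
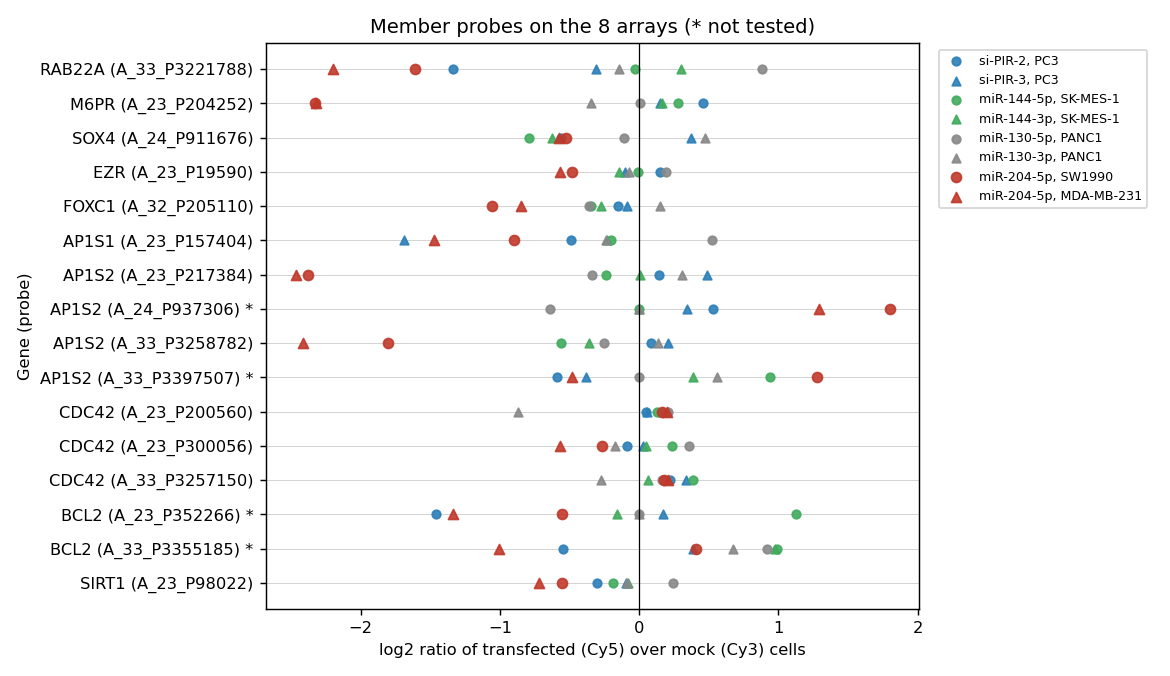
Log2 ratio of transfected over mock cells (x axis) for each of the 16 member probes (rows), 1 point per array, with the 2 miR-204-5p arrays in red and the other 6 coloured by cell line. M6PR and the tested AP1S2 probes sit below -1.80 on both miR-204-5p arrays, while their points on the other 6 lie between -0.56 and 0.48. Probes with an asterisk were not tested.

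**Figure D2:**
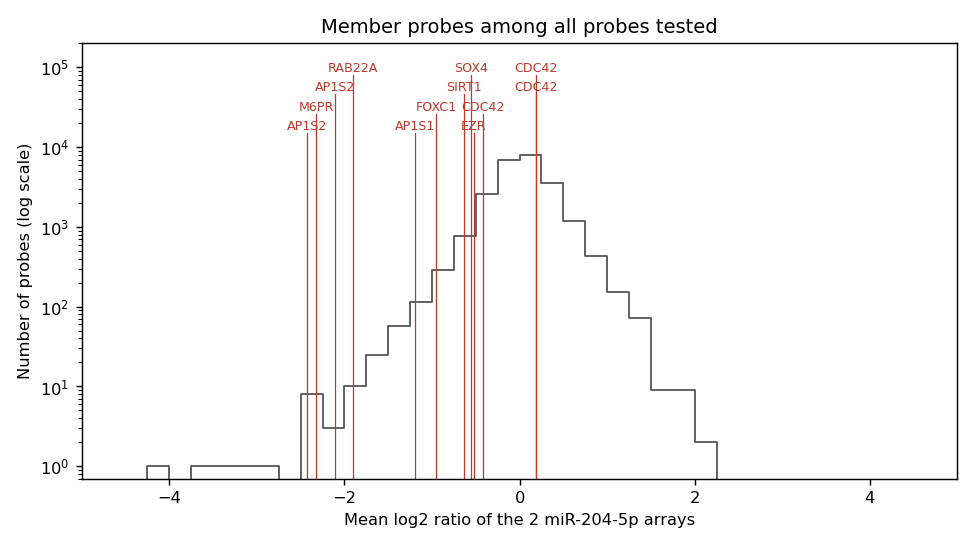
Number of probes (y axis, log scale) by their mean log2 ratio on the 2 miR-204-5p arrays (x axis, in steps of 0.25) for the 24111 probes tested, with a red line for each of the 12 tested member probes. Members span from -2.42 for AP1S2 to 0.19 for CDC42.

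Members of vesicle traffic came first by size. M6PR is the cation-dependent mannose 6-phosphate receptor, which carries newly made acid hydrolases from the trans-Golgi network to endosomes. Its probe, A_23_P204252 for NM_002355 at chr12:9093657-9093716 on the minus strand of hg19, read -2.33 in SW1990 and -2.32 in MDA-MB-231. On the other arrays it read 0.46 and 0.15 in PC3, 0.28 and 0.16 in SK-MES-1, and 0.01 and -0.35 in PANC1. Both miR-204-5p arrays lay far below all others and next to each other. The mean was -2.33 ± 0.0045 (SD, n = 2), or 5.012-fold lower than mock (limma adjusted p = 0.00141), and the difference from the other arrays was -2.44 (SE 0.22, adjusted p = 0.00463). M6PR was a dim probe. Its mean intensities, before background correction and dye normalization, were 223 in mock and 90.6 in transfected SW1990 cells. In MDA-MB-231 cells they were 110 and 45.8. Normexp background correction was run with an offset of 50 added to every intensity, which weighs most on dim signals. The mean of M6PR against mock was then -1.34 with loess (limma adjusted p = 0.0118) and -1.31 with median centring (adjusted p = 0.0072). The size of the fall in M6PR thus depended on how dim signals were treated, and the call was made either way. The calls were lost with a single miR-204-5p array: the adjusted p against mock was 0.0507 without SW1990 and 0.0691 without MDA-MB-231, and against the other arrays it was 0.104 and 0.106.

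AP1S1 and AP1S2 encode sigma1 subunits of AP-1, the clathrin adaptor that packs cargo such as mannose 6-phosphate receptors into vesicles at the trans-Golgi network and endosomes. AP1S2 probe A_23_P217384 (NM_003916, chrX:15844579-15844638, minus strand, hg19) read -2.38 in SW1990 and -2.47 in MDA-MB-231. Its other values were 0.14 and 0.48 in PC3, -0.24 and 0.01 in SK-MES-1, and -0.34 and 0.31 in PANC1. The groups did not overlap, and the mean of -2.42 ± 0.06 (SD, n = 2) was 5.36-fold lower than mock (limma adjusted p = 0.00163). Against the other arrays the difference was -2.48 (SE 0.24, adjusted p = 0.0062). Without SW1990 or without MDA-MB-231 these calls were lost too, with adjusted p-values of 0.0507 and 0.0787 against mock and of 0.109 and 0.165 against the other arrays.

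A second AP1S2 probe, A_33_P3258782 at chrX:15863503-15863562, lies upstream of the first on the minus strand. It read -1.81 in SW1990 and -2.41 in MDA-MB-231, against 0.08 and 0.21 in PC3, -0.56 and -0.36 in SK-MES-1, and -0.25 and 0.14 in PANC1. Both probes thus fell in both lines. For this one the mean was 4.32-fold lower than mock (limma adjusted p = 0.00607), and the difference of -1.99 from the other arrays had an adjusted p of 0.0329. That second call was not stable, as it was made under 8 of 17 alternatives, with adjusted p-values from 0.0169 to 0.371. The remaining AP1S2 probes, A_24_P937306 and A_33_P3397507, carry the Ensembl transcript ENST00000380291 and were above background in any channel on 3 arrays each. They read 1.80 and 1.28 in SW1990 and 1.29 and -0.48 in MDA-MB-231, so that the probes of AP1S2 disagreed in direction. The dim probe A_24_P937306 was above background in mock cells on none of the 8 arrays.

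AP1S1 probe A_23_P157404 (NM_001283, chr7:100804062-100804121, plus strand, hg19) read -0.90 in SW1990 and -1.48 in MDA-MB-231. It read -0.49 with si-PIR-2 and -1.69 with si-PIR-3 in PC3, -0.20 and -0.23 in SK-MES-1, and 0.52 and -0.24 in PANC1. The si-PIR-3 array was lower than both miR-204-5p arrays, so the groups overlapped. AP1S1 did not pass limma's test against mock (-1.19 on the log2 scale, adjusted p = 0.298) or against the other arrays (-0.80, SE 0.46, adjusted p = 0.763).

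RAB22A is a small GTPase of early endosomes that acts in the recycling of membrane proteins. Its probe A_33_P3221788 (NM_020673, chr20:56942283-56942342, plus strand, hg19) read -1.61 in SW1990 and -2.20 in MDA-MB-231. It read -1.34 with si-PIR-2 and -0.31 with si-PIR-3 in PC3, -0.03 and 0.30 in SK-MES-1, and 0.89 and -0.14 in PANC1. Both miR-204-5p values were the lowest, and the si-PIR-2 array came close to them. The mean of -1.90 ± 0.42 (SD, n = 2) was 3.74-fold lower than mock, with a limma adjusted p of 0.0964. The difference from the other arrays was -1.80 (SE 0.47, adjusted p = 0.302). Without the si-PIR-2 array the adjusted p was 0.0426 against mock and 0.112 against the remaining arrays. With normexp and median centring the mean against mock was -1.30 and passed (adjusted p = 0.0412). That setting also called 902 of all probes lower and 1498 higher than mock. RAB22A passed against mock under only these 2 of 19 alternatives, and against the other arrays under 0 of 18.

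Among all 24111 probes ordered from the lowest mean on the 2 miR-204-5p arrays, the AP1S2 probes ranked 9 and 14, M6PR 13, RAB22A 19 and AP1S1 125. Thus the lowest 20 held 4 of the 5 tested probes of these 4 trafficking genes.

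The transcription factors among the members moved less. FOXC1, a forkhead factor of mesenchyme and eye development, was measured by probe A_32_P205110 (NM_001453, chr6:1613858-1613917, plus strand, hg19). It read -1.06 in SW1990 and -0.85 in MDA-MB-231, against -0.15 and -0.08 in PC3, -0.35 and -0.28 in SK-MES-1, and -0.36 and 0.15 in PANC1. The groups did not overlap. The mean of -0.95 ± 0.15 (SD, n = 2) had a limma adjusted p of 0.0511 against mock, just beyond the threshold of 0.05, and passed it under 8 of 19 alternatives. One of these was normexp with median centring, where the mean was -0.56 (adjusted p = 0.0273). Against the other arrays the difference was -0.77 (SE 0.20, adjusted p = 0.289).

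SOX4 is a high mobility group factor of progenitor and many cancer cells. Its probe A_24_P911676 (NM_003107, chr6:21598001-21598060, plus strand, hg19) read -0.53 in SW1990 and -0.57 in MDA-MB-231. The other arrays read -0.56 and 0.37 in PC3, -0.79 and -0.63 in SK-MES-1, and -0.11 and 0.48 in PANC1. Both miR-144 arrays were lower than both miR-204-5p arrays. SOX4 therefore overlapped between the groups, and neither comparison passed (limma adjusted p = 0.58 against mock and 0.921 against the other arrays).

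EZR, CDC42 and SIRT1 act in the cell cortex, in polarity and in deacetylation. EZR encodes ezrin, which links the plasma membrane to actin. Its probe A_23_P19590 (NM_003379, chr6:159187670-159187729, minus strand, hg19) read -0.48 in SW1990 and -0.57 in MDA-MB-231, against 0.15 and -0.10 in PC3, -0.01 and -0.15 in SK-MES-1, and 0.20 and -0.07 in PANC1. Both values lay below all others, at a distance of about the spread of those others. The difference from them was -0.53 (SE 0.18, limma adjusted p = 0.479), and the adjusted p against mock was 0.215. With normexp and median centring its mean against mock was -0.11 (adjusted p = 0.513).

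SIRT1 is an NAD-dependent deacetylase of histones and transcription factors. Its probe A_23_P98022 (NM_012238, chr10:69677560-69677619, plus strand, hg19) read -0.55 in SW1990 and -0.72 in MDA-MB-231, against -0.31 and -0.10 in PC3, -0.19 and -0.08 in SK-MES-1, and 0.24 and -0.08 in PANC1. The groups did not overlap here either. Its mean of -0.64 against mock (limma adjusted p = 0.161) and difference of -0.55 (adjusted p = 0.497) did not pass.

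CDC42, a small GTPase of cell polarity, had 3 tested probes that did not move together. The brightest, A_23_P200560 (NM_001039802, chr1:22419269-22419328, hg19), read 0.16 in SW1990 and 0.20 in MDA-MB-231, and A_33_P3257150 of the same transcript (chr1:22418031-22418090) read 0.17 and 0.20. On the other 6 arrays the brightest probe lay between -0.87, with miR-130-3p, and 0.21. Both probes were thus within the range of the other arrays, with differences of 0.22 (SE 0.29) and 0.04 (SE 0.21) and limma adjusted p-values of 0.946 and 0.99. The third probe, A_23_P300056, lies at chr1:22416563-22416622 and carries a different transcript variant, NM_044472. It read -0.27 and -0.57, below all 6 others, which reached down to -0.17 (difference -0.49, SE 0.20, adjusted p = 0.608). This was the dimmest tested member probe. In SW1990 its mean intensities were 29.8 in mock and 29.5 in transfected cells, beside median backgrounds of 19 and 16. With normexp and loess it read -0.03 in SW1990 and -0.19 in MDA-MB-231.

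BCL2, the founding inhibitor of mitochondrial apoptosis, could not be compared over all 8 arrays. In mock cells, its probes were well above background on 4 of 8 arrays, in PC3, SW1990 and MDA-MB-231. Probe A_23_P352266 (chr18:60790723-60790782, hg19) read -0.55 in SW1990 and -1.33 in MDA-MB-231, and probe A_33_P3355185 (chr18:60985401-60985460, hg19) read 0.41 and -1.0. In PC3 the first probe read -1.46 with si-PIR-2 and 0.17 with si-PIR-3, and the second -0.55 and 0.39. MDA-MB-231 was thus lower on both probes, while SW1990 was lower on one and higher on the other. When probes were required to be above background on the 2 miR-204-5p arrays alone, limma's adjusted p against mock was 0.538 and 0.889.

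The sigma1 family had a further member outside the 10 genes. AP1S3, the remaining sigma1 subunit, had 3 tested probes, and all 3 fell in both comparisons. Probe A_24_P105747 read -3.00 in SW1990 and -3.41 in MDA-MB-231, between -0.30 and 0.28 on the other arrays, and was 9.25-fold lower than mock (limma adjusted p = 0.000247). Probe A_33_P3275707 read -2.99 and -3.00 and A_33_P3289005 read -2.05 and -2.82. These folds, 7.98 and 5.39, stood above the 5.36 of the brighter AP1S2 probe, with no test between the genes. The means of the first and the third AP1S3 probe were smaller with normexp background correction, up to -1.62 and -1.07. With normexp and loess the brighter AP1S2 probe was at -2.10. The order of those AP1S3 probes and AP1S2 thus depended on the processing. Thus 5 of 6 tested sigma1 probes, of 2 of the 3 sigma1 genes, were lower against mock and against the other arrays. The AP1S3 calls were not made under every alternative. Against mock they were made under 17 of 18 for A_24_P105747, 18 of 19 for A_33_P3275707 and 16 of 18 for A_33_P3289005. Against the other arrays it was 16 of 17, 16 of 18 and 14 of 17.

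The beta, gamma and mu subunits of the same AP-1 adaptor did not share this. All 6 tested probes of AP1B1, AP1G1, AP1G2, AP1M1 and AP1M2 had means between -0.48 and 0.42, and none passed either comparison (lowest limma adjusted p = 0.395 against mock and 0.488 against the other arrays). The highest was the gamma subunit AP1G1, at 0.43 in SW1990 and 0.40 in MDA-MB-231. The lowest was the epithelial mu subunit AP1M2, at -0.60 and -0.36, inside the range of -1.20 to 1.35 on the other arrays. IGF2R, the large mannose 6-phosphate receptor beside M6PR, read -0.19 and -0.36 (adjusted p = 0.741 against mock).

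**Figure D3:**
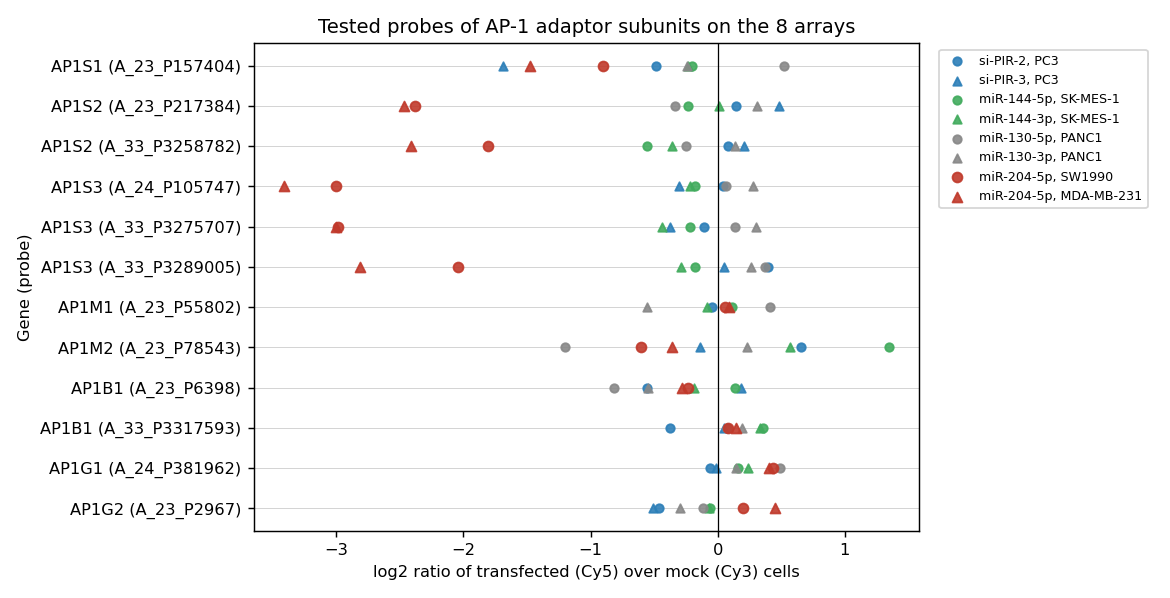
Log2 ratio of transfected over mock cells (x axis) for the tested probes of the 8 AP-1 adaptor subunit genes (rows), 1 point per array, with the 2 miR-204-5p arrays in red. AP1S2 and AP1S3 lie between -3.41 and -1.81 on the miR-204-5p arrays, AP1S1 overlaps with the si-PIR-3 array, and the other subunits lie among the points of the other 6 arrays or close to them.

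A wider set of 31 relatives of the members (AP-1 subunits, a mannose 6-phosphate receptor, endosomal RAB and other small GTPases, and genes of the SOX, forkhead, ezrin, BCL2 and sirtuin families) had 45 tested probes of 27 genes. The 3 AP1S3 probes were those that fell in both comparisons, and none rose in limma. At an unadjusted p under 0.05 in limma, 3 of the 45 were lower and 1 higher against mock, beside 1180 and 1399 of all 24111 probes. Against the other arrays 3 were lower and 2 higher, beside 964 and 910 of all probes. The 3 lower ones were the AP1S3 probes each time. The median of the relatives was 0.06 against mock and 0.12 against the other arrays, beside 0.04 and 0.02 over all probes. TRPM3, which hosts the miR-204 gene, had 3 probes, and none was bright enough to be tested.

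A second list held 28 other genes reported as miR-204-5p targets, with 31 tested probes of 22 genes. In it 2 probes fell in both comparisons and none rose, with 14 of the 31 lower and 1 higher in each at an unadjusted p under 0.05. Over all 24111 probes, 1180 were lower and 1399 higher against mock at that threshold, and 964 and 910 against the other arrays. Its median was -0.30 against mock and -0.43 against the other arrays. SERP1, a protein that stabilizes membrane proteins in the endoplasmic reticulum, read -2.39 in SW1990 and -2.35 in MDA-MB-231, against -0.15 to 0.69 elsewhere. It was 5.16-fold lower than mock (limma adjusted p = 0.00141) and -2.57 from the other arrays (adjusted p = 0.00423). SERP1 was called under 16 of 19 alternatives against mock and under 16 of 18 against the other arrays. BCL2L2, which encodes the anti-apoptotic BCL2 relative BCL-W, read -1.33 and -1.61, against -0.29 to 0.39 elsewhere, with adjusted p-values of 0.0121 and 0.0438. The second of these 2 calls was made under 6 of 18 alternatives. EPHB2, an ephrin receptor, had 3 probes with means from -1.49 to -1.11, of which none passed. At the other end, HMGA2, a chromatin protein that is silenced in most adult cells, had a brightest probe at 1.53 and 1.32, but it also reached 2.16 with si-PIR-2 and 1.90 with miR-130-3p (adjusted p = 0.345 against mock and 0.95 against the other arrays).

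A base run that pairs with the whole seed of miR-204-5p reads AAAGGGA. It was searched in the array probes, which cover 60 bases of a message each, and no match says only that these letters are not in that window. It was in 0 of the 16 member probes on the strand given, and its reverse complement TCCCTTT was in 1, the untested AP1S2 probe A_33_P3397507. Over all probes of the array, 415 of 58201 (0.713%) held it, and 411 (0.706%) held the reverse complement. Among tested probes, the 142 that held it had a median of -0.23 against mock and -0.24 against the other arrays, and the 23969 without it had medians of 0.04 and 0.02. Of these, 1 (0.704%) and 28 (0.117%) were called lower against the other arrays. The windows below, 27 bases of a probe with the match in capitals, show that probes with the same match read very differently. RAB40B and MAP1LC3B are from the second list, and MRPS17, a mitochondrial ribosome protein, was chosen after its value was seen.
RAB40B: gttttcgatgtgtgtttgtAAAGGGAa
MAP1LC3B: AAAGGGAtgttaccaactgagatcgat
MRPS17: agaaggatctAAAGGGAaaaactgaca
The probe of RAB40B, a RAB GTPase (chr17:80615516-80615575, minus strand, hg19), read -1.30 in SW1990 and -1.51 in MDA-MB-231. It also read -1.18 with miR-130-5p, and did not pass against mock (limma adjusted p = 0.122). The probe of MAP1LC3B, an autophagosome protein (chr16:87436758-87436817, plus strand), read -0.05 and 0.04. The probe of MRPS17 (chr7:56022855-56022914, plus strand) read -2.26 and -2.46, against -0.32 to 0.61 elsewhere (adjusted p = 0.00899 against the other arrays).

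Levels in mock cells show how much message each line held before transfection. They are given as log2 of the mock signal relative to the 75th percentile of each array, may be compared between lines for 1 probe but not between probes, and were not tested, since a line had 1 or 2 arrays. Among bright probes, the 2 arrays of a line mostly differed by less than 0.2. M6PR was highest in SW1990 (2.0), then in PANC1 (1.35), SK-MES-1 (0.86), PC3 (0.79) and MDA-MB-231 (0.72). The last 3 lay no further apart than the pair of PC3 arrays, which differed by 0.12, or close to it. AP1S2 by its brighter probe was highest in MDA-MB-231 (3.67), followed by PC3 (3.00) and SW1990 (2.74), and low in SK-MES-1 (1.15) and PANC1 (1.08). RAB22A ranged only from 1.24 in PC3 to 2.10 in MDA-MB-231. AP1S1 was at 2.55 in PC3 and between 1.55 and 1.84 in the other 4 lines.

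EZR stood out in SW1990 (6.93), with 3.59 in PC3 and 4.35 to 4.91 in the other lines. SOX4 was highest in PC3 (1.009) and lowest in MDA-MB-231 (-1.79), with SW1990 at -1.014. FOXC1 was highest in MDA-MB-231 (1.18) and lowest in SK-MES-1 (-1.05). SIRT1 was highest in PANC1 (1.40) and lowest in SK-MES-1 (-1.07). CDC42 by its brightest probe was even, from 5.14 in SW1990 to 6.08 in MDA-MB-231. BCL2 by A_23_P352266 was at 0.19 in MDA-MB-231, -1.50 in PC3 and -3.19 in SW1990, and not well above background in the mock cells of SK-MES-1 and PANC1. The mock levels of M6PR, 2.0 in SW1990 and 0.72 in MDA-MB-231, went with scanner ratios of -2.33 and -2.32, but with -1.56 and -1.12 after normexp and loess.

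**Figure D4:**
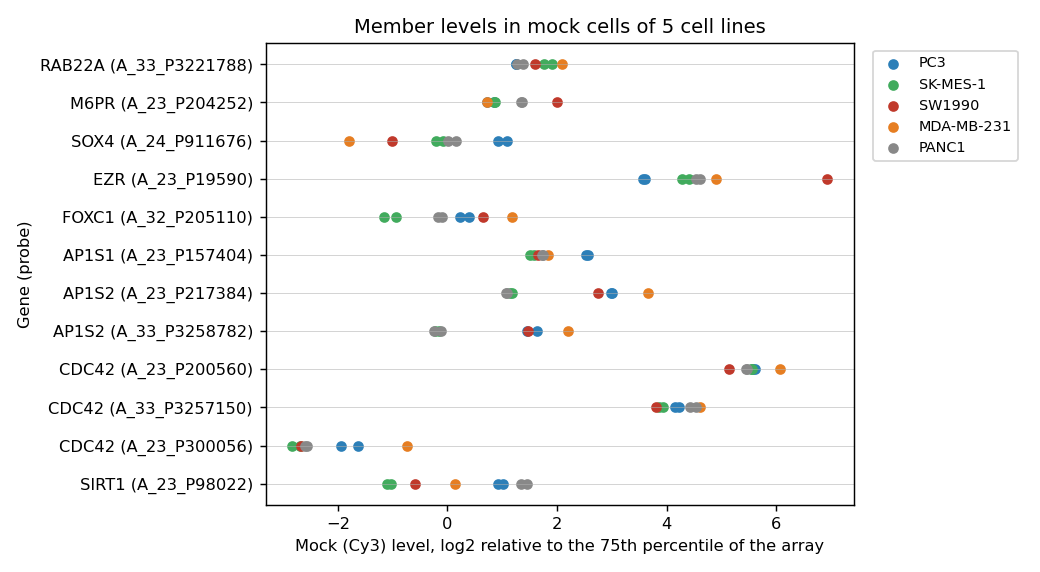
Mock level (x axis, log2 relative to the 75th percentile of the array) of the 12 tested member probes (rows), 1 point per array, coloured by cell line. EZR in SW1990, at 6.93, lies apart from the other lines. SOX4 is lowest in MDA-MB-231, at -1.79, with SW1990 next at -1.014.

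The member probe with the lowest mean was AP1S2 A_23_P217384, and the genes most like it over the 8 arrays were found by Pearson's r among 18668 genes. They were C1orf43 (r = 0.988), the transcription factor subunit TAF5L (0.979), the amino acid transporter SLC43A1 (0.977), the centromeric histone CENPA (0.976) and CHP1 (0.969), a calcineurin-like calcium-binding protein. The points are 8 arrays of 1 slide, and r follows mainly the gap between the 2 miR-204-5p arrays and the rest. All 5 genes were lower on both miR-204-5p arrays than on the other 6, which choosing them by r favours, and by less than AP1S2. Their means against mock lay between -1.34 for CENPA and -0.87 for CHP1.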

How the data were processed

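The authors deposited Agilent Feature Extraction 11.5.1.1 scanner output of 8 arrays, with a log10 ratio of Cy5 over Cy3 per spot and processed and mean intensities of each channel. A deposited value table held the same log10 ratios (largest difference 0). Of 62976 spots per array, 60901 were not controls, and 126 to 173 flagged spots were left out. Depth is not defined for arrays, and the number of arrays limits the precision. Ratios were multiplied to log2 and spots of a probe averaged. Gene names and hg19 coordinates are those of the array design, and 14 of the 16 member probes had an accession with the same symbol in RefSeq; exons and untranslated regions were not assigned. Of the value table, 0 columns lacked a sample.

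In limma 3.58.1 (R 4.3.3), lmFit and eBayes were fitted to 24111 probes of 18733 genes with 2 groups and cell line as a random block (duplicateCorrelation, 0.0848). The threshold was an adjusted p of 0.05. The fit was checked on simulated data. Named genes were the members, the genes of 2 lists at either end of the miR-204-5p mean, genes whose call is told, and the 5 most like the lowest member probe. Members and lists were chosen with earlier results of these data known. Alternatives covered background correction, filter, block, 1 probe per gene and left-out arrays.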

Additional observations from a re-analysis of the deposited data

Results flagged for a closer look

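On 2 probes of the members, the 2 cell lines given miR-204-5p moved in opposite directions, with 1 array per line and no test of the difference. AP1S2 A_33_P3397507 read 1.28 on the log2 scale in SW1990 and -0.48 in MDA-MB-231, and BCL2 A_33_P3355185 read 0.41 and -1.0. Neither probe was well above background on every array, and neither was tested.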

How the results depend on the processing

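Of 438 results of single member probes under alternatives, 403 kept their direction and their side of the threshold, 22 lost a call, 10 gained one and 3 changed sign. Most of the 403 were probes not called to begin with, and the deposited value table could only repeat the main result. The lost calls were those of M6PR and AP1S2. M6PR and AP1S2 A_23_P217384 were each called under 16 of 19 alternatives against mock and 16 of 18 against the other arrays. For AP1S2 A_33_P3258782 it was 15 of 18 and 8 of 17. The 3 were the difference of CDC42 A_33_P3257150, which was -0.0023 with normexp and loess, -0.0247 with normexp and median centring, and -0.0393 without miR-130-3p (-0.0393 to 0.0856 without 1 array at a time). With normexp and loess, 45 probes were lower and 4 higher than on the other 6 arrays, and the member medians were -0.54 against these and -0.58 against mock. With normexp and median centring, 4 were higher than on the other arrays, 902 were lower and 1498 higher than mock, 5 member probes were lower than mock, and the member medians were -0.48 and -0.45. With no filter on dim probes, 80 were lower and 17 higher than on the other arrays, 43 were higher than mock, and the member median against mock was -0.59. With both channels above background, 2 were higher than on the other arrays and 5 higher than mock. With a filter on the miR-204-5p arrays alone, 17 were lower than on the others, with member medians of -0.77 and -0.64. Without the cell line block 2 were higher. With 1 probe per gene, 16 were lower and 0 higher than on the other arrays, with member medians of -0.77 and -0.95. Averaged per cell line, 7 were lower and 0 higher, and 48 were higher than mock. On the 2 miR-204-5p arrays alone, 0 were lower, 0 higher and 0 members lower than mock. At a limit of -0.5 or -2 on both arrays, 8 and 2 member probes passed. Leaving out 1 array at a time gave 0 to 16 probes lower and 0 higher than on the other arrays, 2 to 121 lower and 0 to 37 higher than mock, 0 to 3 member probes lower than on the other arrays and 0 to 4 lower than mock, member medians of -0.68 to -0.50 and -0.79 to -0.73, 4 to 5 member probes below -1 and 8 to 9 below all others. The causes were not tested. Each ratio already pairs transfected with mock cells of the same line. The groups could not be paired further, because neither SW1990 nor MDA-MB-231 had another RNA on an array. Dim signal limits M6PR, BCL2 and the untested AP1S2 probes. It also limits SOX4, FOXC1, SIRT1, AP1S2 A_33_P3258782 and CDC42 A_23_P300056, which were dimmer than M6PR. With normexp and loess their means against mock were -0.19 for SOX4, -0.63 for FOXC1 and -0.28 for SIRT1. They were -1.56 for this AP1S2 probe and -0.11 for this CDC42 probe.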
